A study of Mus musculus with 10 samples.

Results

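The 8 enzymes described here carry out haem synthesis: Alas1 and Alas2, Alad, Uros, Urod, Cpox, Ppox and Fech, listed in pathway order. They were chosen by name, as 8 of the 17603 mouse genes measured, and all 8 had a value of at least 1 FPKM (fragments scaled to transcript length and to library depth) in every library. The enzymatic step between Alad and Uros was not analysed here.

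Messenger RNA was sequenced from 10 libraries of cells sorted by flow cytometry out of wild-type female C3H/HeN mice bearing tumors of SCC7 cells, a mouse squamous carcinoma line standing in for head and neck cancer. The groups were tumor CD45+ EPC (4 libraries), splenic CD45+ EPC (3 libraries) and splenic CD45- EPC (3 libraries), where CD45 is the surface protein of white blood cells encoded by Ptprc. The labels use the abbreviation EPC without expanding it, and they give no age, no number of mice and no tumor-free control. Whether libraries of a group stem from separate mice is stated nowhere, and p-values therefore reflect the spread between these libraries, which may be technical.

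Haem is built from glycine and succinyl-CoA. Aminolevulinate synthase makes aminolevulinic acid in the mitochondrion. Alad, Uros and Urod then work in the cytosol on the way to a ring with 4 pyrrole units, and Cpox, Ppox and Fech finish the molecule back in the mitochondrion, where Fech inserts iron. The first step has 2 genes: Alas1 serves most cells and is held down by haem itself, whereas Alas2 belongs to red cell precursors, which make haem for haemoglobin and in which Gata1 is a main activator of the pathway. Alas2 messenger RNA also carries an iron-responsive element, a hairpin through which low iron blocks its translation.

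The sequences that bear on these features are shown because Alas2 had the highest level of the 8 and Cpox, of the 8, the largest change between the CD45+ groups. Capitals in the first line mark the CAGTG letters of the Alas2 iron-responsive element loop, at chrX:150547460-150547484 (GRCm38, plus strand) in the non-coding first exon. Capitals in the next 3 lines mark every match, on either strand, to a GATA motif (GATA preceded by A or T and followed by A or G) or to CACCC, the core letters read by Klf1. The Alas2 stretch is chrX:150547167-150547374 (plus strand) and ends where the first annotated exon begins. The Cpox stretch is chr16:58669958-58670207 (plus strand), the 250 bases before its start site. The Uros site is chr7:133702551-133702580 (minus strand), before a start site that RefSeq places within the gene. The sequence of these 3 is from RefSeq on GRCm38.p6, and that of the element is from GENCODE.
Alas2 iron-responsive element: ggttcgtcctCAGTGcagggcaaca
Alas2 promoter: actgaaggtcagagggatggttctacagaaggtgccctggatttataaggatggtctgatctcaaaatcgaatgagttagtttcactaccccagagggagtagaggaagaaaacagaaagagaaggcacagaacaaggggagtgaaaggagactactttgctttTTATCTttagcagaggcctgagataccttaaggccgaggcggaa
Cpox promoter: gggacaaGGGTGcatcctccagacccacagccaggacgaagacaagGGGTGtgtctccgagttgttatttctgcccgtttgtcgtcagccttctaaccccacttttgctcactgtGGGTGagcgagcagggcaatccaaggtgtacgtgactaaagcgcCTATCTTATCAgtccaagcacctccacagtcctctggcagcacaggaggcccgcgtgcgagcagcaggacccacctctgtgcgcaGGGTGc
Uros inner start: tctccctcagccTTATCAgtgacagagggc

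RefSeq gave 10 start-site windows for 7 of the 8 enzymes and none for Fech. In the 250 bases before the start, a GATA match was present in 3 of the 10 windows, those of Alas2, Cpox and the inner start of Uros, against 26.5% of all 32851 mouse windows of that length. The share among the enzymes was thus near that of all genes. Cpox had 2 overlapping GATA matches, the capitals in the middle of its line, and 4 CACCC matches. The Alas2 window had 1 GATA match, 86 bases before the start site, and its 3 overlapping CACCC matches lay past the end of the printed stretch. CACCC was found in 5 of the 10 windows, against 52.0% of all windows. Neither start of Alas1 had a GATA match in its window.

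Depth was similar across libraries, at an estimated 24800000 to 28100000 fragments each, so the lowest enzyme value, that of Alas1 in a splenic CD45- library, rested on about 134 fragments. Some libraries stood apart from their groups. In tumor replicate 1, globin genes took 10.4% of the summed FPKM, against 1.8% to 1.87% in tumor replicates 2 to 4. Tumor replicates 2 and 3 were close to identical: a chi-square comparison over 1547 genes had a median of 0.847, where sampling noise alone gives 0.455. In splenic CD45+ replicate 2, Ptprc was at 39.2 FPKM, against 265 and 153 FPKM in replicates 1 and 3. Markers of several cell types moved with the groups. The 18 erythroid markers summed to 5985 to 40830 FPKM in tumor CD45+ libraries, with 5 of 18 at 1 FPKM or more throughout. They summed to between 133700 and 278700 FPKM in splenic CD45+ libraries, with 17 of 18, and to between 329200 and 419700 FPKM in splenic CD45- libraries, with 18 of 18. The 14 monocyte and macrophage markers summed to 25650 to 47080 FPKM in tumor CD45+ libraries, with 13 of 14 at 1 FPKM or more throughout, and to 1409 to 4848 FPKM in splenic CD45+ libraries, with 13 of 14. In splenic CD45- libraries they summed to 70.9 to 124.6 FPKM, with 8 of 14. The 15 granulocyte markers summed to 49.5 to 1761 FPKM in tumor CD45+ libraries, with 4 of 15 at 1 FPKM or more throughout, to 24410 to 78120 FPKM in splenic CD45+ libraries, with 15 of 15, and to 395.4 to 531.2 FPKM in splenic CD45- libraries, with 10 of 15. The 8 B cell markers summed to 6.09 to 7.76 FPKM in tumor CD45+, 149.3 to 1364 FPKM in splenic CD45+ and 26.0 to 32.8 FPKM in splenic CD45- libraries, with 2, 8 and 5 of 8 at 1 FPKM or more throughout. The 10 T and NK cell markers summed to 6.03 to 44.7 FPKM in tumor CD45+, 59.4 to 357.1 FPKM in splenic CD45+ and 19.8 to 20.35 FPKM in splenic CD45- libraries. Of 7 epithelial markers 3 reached 1 FPKM in every tumor library, Krt8 (208.5 to 239.2 FPKM), Krt18 (95.4 to 163.9 FPKM) and Cdh1 (1.56 to 2.66 FPKM), and 0 of 7 did so in either splenic group. Krt5, Krt14 and Krt6a were at or near 0 in all groups, and Epcam was at 0.02 to 0.04 FPKM in tumor CD45+, against 0.14 to 2.08 FPKM in splenic CD45+ and 0 to 0.02 FPKM in splenic CD45- libraries. The part of these cell types in the enzyme values was not tested. The defining erythroid factor Gata1 was listed at 0 in tumor replicates 2 and 3 and was at 0.27 and 0.02 FPKM in replicates 1 and 4. In such bulk samples fewer cells of a type and less RNA per cell cannot be told apart.

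Alas2, the red cell form of the rate-limiting first enzyme, was the most abundant of the 8 in each group by its mean. It stood at 223.7, 43.4, 42.2 and 39.4 FPKM in tumor CD45+ libraries, against 1586, 1108 and 2217 FPKM in splenic CD45+ and 3358, 3292 and 3012 FPKM in splenic CD45- libraries. Each tumor library lay below each splenic one, and each splenic CD45+ library lay below each CD45- one. For this and the other enzymes, how many of all genes lay apart between groups in this way was not counted. Tumor replicate 1 was 5.37 times the mean of the other tumor libraries.

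Alas1, the form that serves most cells, ran the other way. Its levels were 14.4, 17.1, 17.35 and 15.7 FPKM in tumor CD45+ libraries, against 13.2, 8.86 and 13.55 FPKM in splenic CD45+ and 2.04, 1.73 and 1.78 FPKM in splenic CD45- libraries. The splenic CD45- libraries were lowest, and the 2 CD45+ groups stood close together without overlapping.

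Alad, which joins 2 molecules of aminolevulinic acid into the first pyrrole, was second in both spleen groups. It measured 30.3, 32.7, 31.6 and 28.9 FPKM in tumor CD45+ libraries, against 950.4, 1689 and 936.1 FPKM in splenic CD45+ and 2797, 2322 and 2171 FPKM in splenic CD45- libraries. The 3 groups did not overlap, and splenic CD45+ replicate 2 was 1.79 times the mean of the other 2 libraries of its group.

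Uros, which closes the ring, gave 6.37, 6.8, 7.34 and 6.37 FPKM in tumor CD45+ libraries, against 151, 298.1 and 164.1 FPKM in splenic CD45+ and 321.4, 333.2 and 324.6 FPKM in splenic CD45- libraries. Urod, which trims 4 side chains of that ring, gave 36.9, 30.3, 29.4 and 28.2 FPKM in tumor CD45+ libraries, against 412.4, 542.8 and 452 FPKM in splenic CD45+ and 1024, 1028 and 914.4 FPKM in splenic CD45- libraries. For both enzymes the tumor group was lowest, splenic CD45- was highest and no groups overlapped, although Uros in splenic CD45+ replicate 2 came near the CD45- values.

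Cpox, the first of the late mitochondrial enzymes, was the lowest of the 8 in tumor CD45+ libraries, at 3.6, 5.11, 5.86 and 5.79 FPKM, against 305.5, 513.1 and 215.3 FPKM in splenic CD45+ and 364.8, 385.6 and 433.7 FPKM in splenic CD45- libraries. It was the only one of the 8 whose splenic groups overlapped, because replicate 2 of the CD45+ group exceeded every CD45- library. Ppox, which oxidises the ring, had 7.71, 8.66, 8.03 and 7.69 FPKM in tumor CD45+ libraries, against 148.8, 193.8 and 154.2 FPKM in splenic CD45+ and 319.3, 288.8 and 287.2 FPKM in splenic CD45- libraries. Its 3 groups were fully apart.

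Fech, on chromosome 18, had 29.96, 16.9, 17.7 and 16.3 FPKM in tumor CD45+ libraries, against 543.7, 537.6 and 593.9 FPKM in splenic CD45+ and 978.1, 1041 and 844.5 FPKM in splenic CD45- libraries. The groups did not overlap, and tumor replicate 1 was again the highest of its group, at 1.76 times the mean of the other tumor libraries. For Urod the same ratio was 1.26, for Alad, Uros, Ppox and Alas1 it lay between 0.863 and 0.976, and for Cpox it was 0.644.

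**Figure D1:**
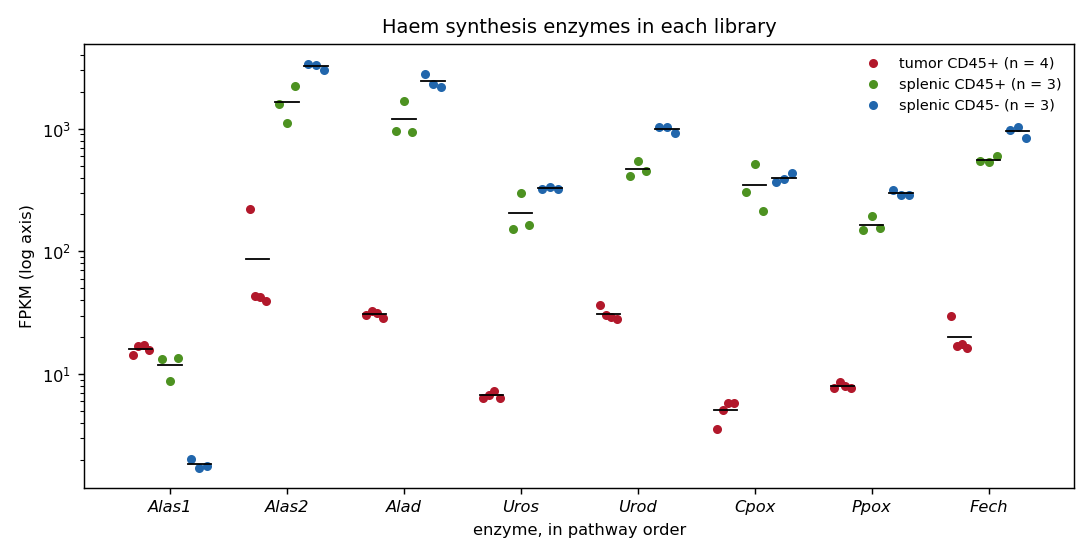
FPKM of each enzyme (log axis) in every library, by group, with a point per library and a black line at the group mean. Alas1 is lowest in the splenic CD45- libraries (1.73 to 2.04 FPKM), whereas the other 7 enzymes are lowest in the tumor CD45+ libraries.

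Tumor CD45+ against splenic CD45+ libraries compares the same gate in 2 tissues. All enzymes from Alas2 to Fech were lower in the tumor CD45+ libraries, and Alas1 did not pass the test. With limma on log2(FPKM + 1) and Benjamini-Hochberg adjustment over 11463 genes, 7 of 8 enzymes were called lower and 0 higher at an adjusted p below 0.05, where 26.0% of all genes tested were called lower, 37.7% higher and 63.8% in either direction. Alas1 alone was higher in each tumor library than in any splenic CD45+ library. The median log2 change was -4.64 over the 8 enzymes and 0.20 over all genes tested.

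Cpox had the largest change of the 8, with a mean of 5.09 ± 1.05 FPKM in tumor CD45+ and 344.7 ± 152.7 FPKM in splenic CD45+ libraries (SD, n = 4 and 3), a log2 change of -5.75 ± 0.30 (SE, limma adjusted p = 2.95e-06). Alad followed with -5.17 ± 0.23 (limma adjusted p = 1.23e-06). Fech changed by -4.76 ± 0.22 (limma adjusted p = 1.78e-06), Uros by -4.67 ± 0.24 (limma adjusted p = 2.91e-06) and Ppox by -4.20 ± 0.15 (limma adjusted p = 5.05e-07). Urod had the smallest of the 7 called changes, at -3.87 ± 0.16 (limma adjusted p = 1.06e-06).

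Alas2 changed by -4.61 ± 0.61 (limma adjusted p = 4.00e-04), and its standard error was the largest of the 8. Without tumor replicate 1 its log2 change was -5.21 and that of Fech -4.96, and the same 7 enzymes were called. Alas1 was at 16.2 ± 1.35 FPKM in tumor CD45+ and 11.9 ± 2.62 FPKM in splenic CD45+ libraries (SD, n = 4 and 3), and its log2 change of 0.43 ± 0.18 was not called (limma adjusted p = 0.0700). That value depended on scaling: it was 0.68 with an adjusted p of 0.0345 when every library was brought to the same sum, and -0.0062 when globin genes were first left out.

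Splenic CD45+ against splenic CD45- libraries compares opposite gates in 1 organ. Here 5 of the 8 enzymes fell in the CD45+ cells, by at most 1.08 on the log2 scale, and Alas1 rose. limma over 9728 genes called 5 enzymes lower, where 5.02% of all genes tested were called lower, and 1 higher, where 50.5% were called higher and 55.5% in either direction. Among all called genes 91.0% were higher, a share that was 61.4% with trimmed-mean scaling. The median log2 change was -0.81 over the 8 enzymes and 0.67 over all genes tested. Of the enzymes, 6 were lower and 1 was higher in each CD45+ library than in any CD45- library, and 1, Cpox, overlapped. The share of all genes without overlap was not counted here either.

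Alas1 was at 11.9 ± 2.62 FPKM in splenic CD45+ and 1.85 ± 0.17 FPKM in splenic CD45- libraries (SD, n = 3 each), a 6.42-fold ratio of means, and its log2 change was 2.16 ± 0.23 (SE, limma adjusted p = 8.02e-04). It was called higher under every scaling, filter and leave-one-out alternative run for this comparison. Alas2 was at 1637 ± 556 FPKM in splenic CD45+ and 3221 ± 184 FPKM in splenic CD45- libraries (SD, n = 3 each), and its log2 change was -1.03 ± 0.27 (SE, limma adjusted p = 0.0135).

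Urod (-1.08 ± 0.18, limma adjusted p = 2.75e-03), Alad (-1.08 ± 0.27, limma adjusted p = 0.0122), Ppox (-0.85 ± 0.18, limma adjusted p = 6.32e-03) and Fech (-0.77 ± 0.17, limma adjusted p = 7.77e-03) were the other called enzymes. Uros was at -0.74 ± 0.27 (limma adjusted p = 0.0518) and Cpox at -0.28 ± 0.31 (limma adjusted p = 0.475), neither of them called. Both calls turned on splenic CD45+ replicate 2 and on scaling. Without that replicate Uros was at -1.05 (limma adjusted p = 4.65e-05) and Cpox at -0.62 (limma adjusted p = 8.56e-03), and 7 enzymes were called lower. Trimmed-mean scaling gave -1.47 for Uros (limma adjusted p = 0.00876) and -1.01 for Cpox (limma adjusted p = 0.0398), and median-ratio scaling -1.24 (0.00648) and -0.78 (0.025), with 7 enzymes lower under each. The count of lower enzymes was 3 without splenic CD45- replicate 1, and 0 when every library was brought to the same sum, a scaling under which Cpox was at 0.10 and the median over all genes at 1.02.

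In splenic CD45+ replicate 2 the enzymes did not move as 1 group. Relative to the mean of replicates 1 and 3, Cpox was at 1.97 times, Uros at 1.89, Alad at 1.79, Ppox at 1.28 and Urod at 1.26 times. Fech was at 0.945, Alas1 at 0.661 and Alas2 at 0.583 times. Gata1 was at 222.7 FPKM there, against 114.2 and 108.6 FPKM in replicates 1 and 3. B cell and macrophage markers were lower: B cell markers summed to 149.3 FPKM, against 1364 and 1236 FPKM in replicates 1 and 3, and the 14 monocyte and macrophage markers to 1409 FPKM, against 4848 and 3983 FPKM. The 15 granulocyte markers summed to 32450 FPKM there, between the 24410 FPKM of replicate 1 and the 78120 FPKM of replicate 3. Their part in the enzyme values was not tested.

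Tumor CD45+ against splenic CD45- libraries differ in tissue and gate together, which cannot be told apart, and this comparison shares its libraries with the 2 above. All 8 enzymes passed the test, 7 lower and Alas1 higher in the tumor CD45+ libraries. limma over 11208 genes called 22.5% of them lower, 67.5% higher and 90.0% in either direction, and the median log2 change was -5.47 over the 8 enzymes and 1.06 over all genes tested. The 7 called lower ran from -4.95 ± 0.11 for Urod (SE, limma adjusted p = 3.68e-10) to -6.25 ± 0.10 for Alad (SE, limma adjusted p = 1.04e-10). Alas1 had a log2 change of 2.59 ± 0.09 (SE, limma adjusted p = 6.24e-09), with means of 16.2 and 1.85 FPKM in tumor CD45+ and splenic CD45- libraries, an 8.73-fold ratio. None of the 8 overlapped between these groups, but the share of all genes without overlap was not counted, and 90.0% of all genes were called.

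**Figure D2:**
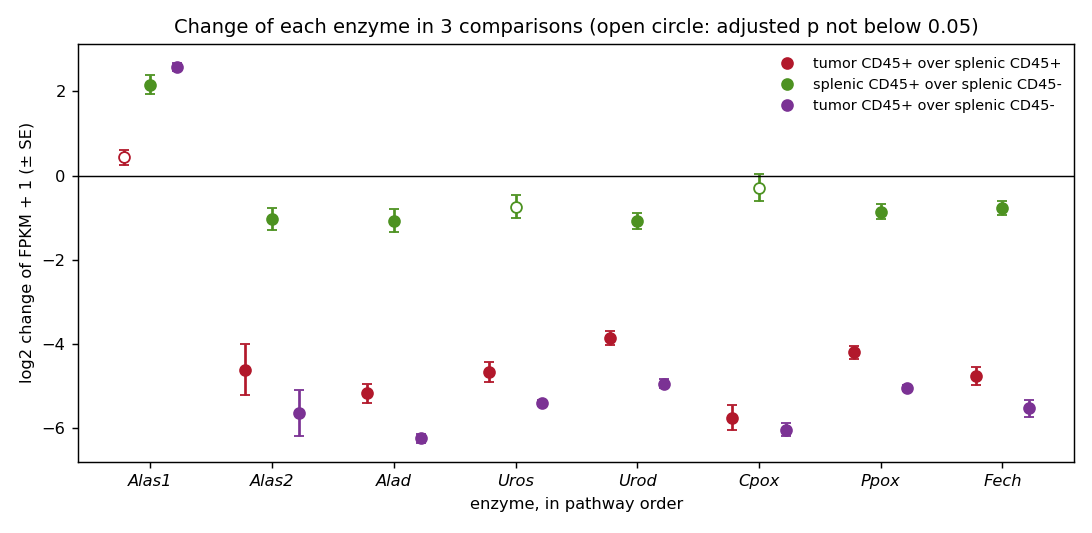
log2 change of FPKM + 1 with its standard error for each enzyme in the 3 comparisons, the first-named group over the second. Filled circles passed an adjusted p of 0.05 in limma and open circles did not, and on the deposited scale only Alas1 lies above 0, at 0.43 (-0.0062 with globin genes left out), 2.16 and 2.59.

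The plain ratio of Alas2 to Alas1 within a library does not depend on how libraries are scaled to each other. It was 15.5, 2.54, 2.43 and 2.50 in tumor CD45+ libraries, against 119.8, 125.1 and 163.6 in splenic CD45+ and 1646, 1903 and 1692 in splenic CD45- libraries. The 3 groups were fully separated, and tumor replicate 1 again stood above the other tumor libraries. As log2((Alas2 + 1)/(Alas1 + 1)) the means were 1.92 ± 1.30 in tumor CD45+, 6.96 ± 0.26 in splenic CD45+ and 10.14 ± 0.08 in splenic CD45- libraries (SD, n = 4, 3 and 3). With 1 added to each gene this log2 value does depend on scaling, most where Alas1 is low. It was not computed under other scalings.

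The tumor CD45+ mean lay 5.04 log2 units below that of splenic CD45+ libraries, a difference of -5.04 (two-sided exact permutation p = 0.0571). Splenic CD45+ libraries differed from splenic CD45- libraries by -3.19 (two-sided exact permutation p = 0.1), and tumor CD45+ from splenic CD45- libraries by -8.23 (two-sided exact permutation p = 0.0571). These are the smallest p-values that designs of 4 against 3 and of 3 against 3 can give, so none could pass 0.05, and 3 such comparisons were made. In splenic CD45+ against CD45- libraries both genes took part, with Alas1 2.16 log2 units higher and Alas2 1.03 lower.

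**Figure D3:**
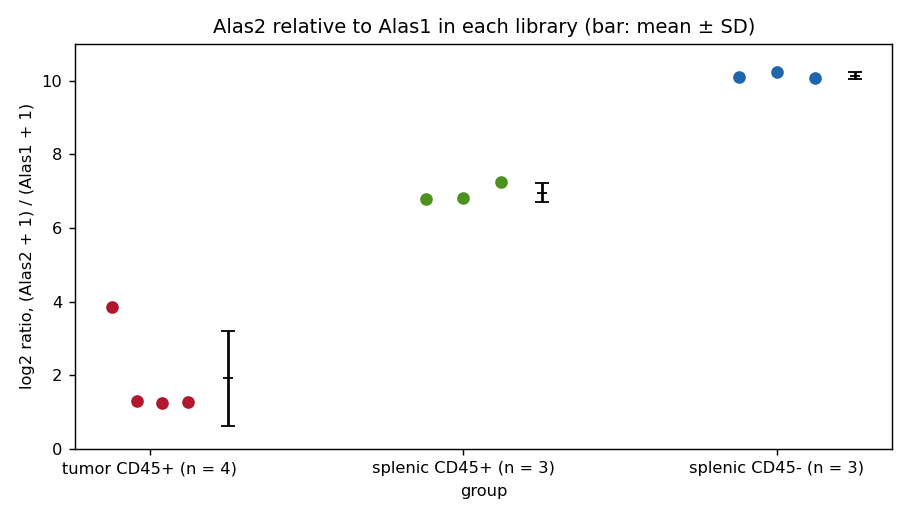
log2 ratio of Alas2 to Alas1 (each FPKM + 1) in every library by group, with the mean and SD as a bar beside the points. The tumor CD45+ libraries lie at 1.24 to 3.86, the splenic CD45+ libraries at 6.80 to 7.25 and the splenic CD45- libraries at 10.08 to 10.24.

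The make-up of the pathway differed as well as its level. The 8 enzymes summed to 148.4 to 352.9 FPKM in tumor CD45+ libraries, 4111 to 4892 FPKM in splenic CD45+ and 7990 to 9164 FPKM in splenic CD45- libraries. Alas1 made up 4.09% to 10.9% of that sum in tumor CD45+, 0.181% to 0.322% in splenic CD45+ and 0.0199% to 0.0223% in splenic CD45- libraries. By mean FPKM it ranked 5 of 8 in tumor CD45+ libraries and 8 of 8 in each splenic group.

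Alas2 made up 63.4% of the sum in tumor replicate 1 and 26.5% to 26.9% in tumor replicates 2 to 4, against 22.7% to 46.7% in splenic CD45+ and 36.7% to 37.9% in splenic CD45- libraries. The splenic CD45- libraries were the most alike and the splenic CD45+ libraries spread the widest of the spleen. Urod held 18.4% to 19.0% in tumor replicates 2 to 4 and 10.4% in replicate 1, against 9.52% to 11.1% in splenic CD45+ and 11.2% to 11.8% in splenic CD45- libraries. Cpox held 1.02% to 3.90% in tumor CD45+, 4.54% to 10.5% in splenic CD45+ and 3.98% to 5.43% in splenic CD45- libraries.

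**Figure D4:**
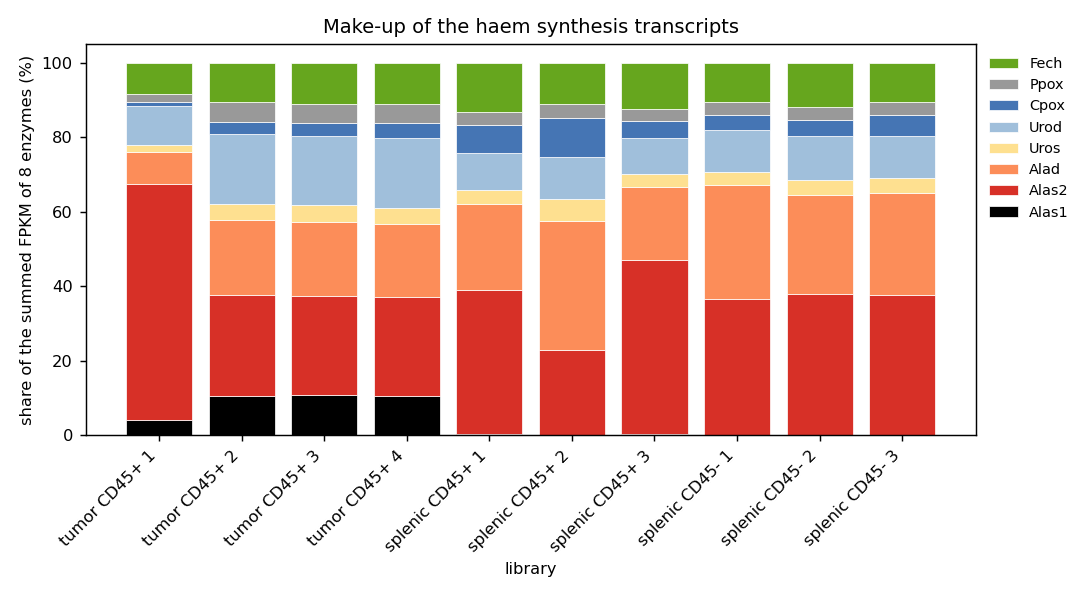
Share of each enzyme in the summed FPKM of the 8, as a stacked bar per library. Alas1 (black) is visible in the tumor CD45+ libraries (4.09% to 10.9%) and at most 0.322% of the sum in any splenic library, and Alas2 (red) takes 63.4% in tumor replicate 1.

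Transcript models added detail within genes, as split by the authors' program, whose division among overlapping models is an estimate. Alas2 lies at chrX:150547417-150570622 (GRCm38.p6), and its 2 main models differ in a stretch of 45 coding bases at the start of exon 3, chrX:150552959-150553003 (plus strand), present in NM_009653 and absent from NM_001102446. The stretch is shown because it is the coding difference between them, all of it in capitals.
Alas2 extra coding stretch: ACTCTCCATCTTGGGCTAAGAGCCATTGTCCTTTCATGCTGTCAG

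The longer Alas2 model made up 87.6% to 89.0% of Alas2 in tumor CD45+, 86.25% to 87.1% in splenic CD45+ and 86.45% to 87.0% in splenic CD45- libraries. The shorter one held 10.6% to 12.2% in tumor CD45+, 11.8% to 13.1% in splenic CD45+ and 12.1% to 12.7% in splenic CD45- libraries. The proportion between the 2 models thus stayed within about the same few percent while Alas2 itself ranged from 39.4 to 3358 FPKM.

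Uros, at chr7:133686142-133710467 (GRCm38.p6), had the largest difference in model shares between tumor and spleen among the 8 enzymes. Of its 11 models in the tables, NM_001302087 made up 35.8% to 45.2% of Uros in tumor CD45+, 82.7% to 85.85% in splenic CD45+ and 82.75% to 84.7% in splenic CD45- libraries. NM_009479 made up 20.4% to 25.4% in tumor CD45+, 0.268% to 0.470% in splenic CD45+ and at most 0.0801% in splenic CD45- libraries, where it was listed at 0 in replicates 1 and 2. The tumor libraries did not overlap the splenic ones for either model. In FPKM, NM_009479 was at 1.39 to 1.62 in tumor CD45+, 0.48 to 0.8 in splenic CD45+ and 0 to 0.26 in splenic CD45- libraries, so these are low levels. The GENCODE transcripts paired with these models have the same coding exons and differ in their first exon, with starts 212 bases apart. These paired transcripts start at chr7:133709069 (NM_001302087) and chr7:133709281 (NM_009479). The inner start whose GATA match is printed above lies at chr7:133702500, so neither of them begins there. Whether another Uros model uses the inner start was not analysed here. These models were singled out after their values were seen, and no test was run.

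**Figure D5:**
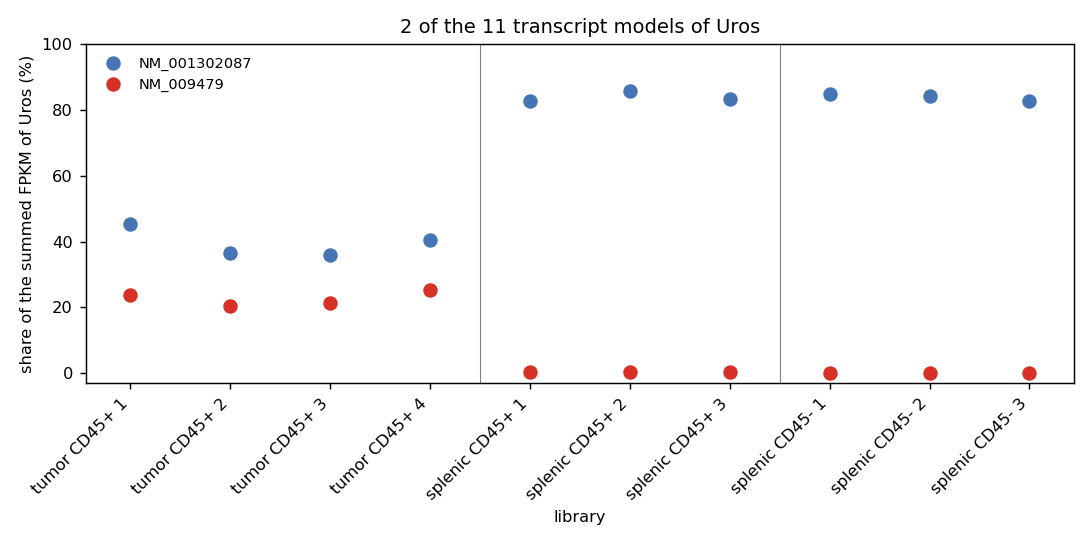
Share of the summed FPKM of Uros held by 2 of its models in every library, with grey lines between tumor CD45+, splenic CD45+ and splenic CD45- libraries. NM_001302087 is at 35.8% to 45.2% in the tumor libraries and at 82.7% or more in the splenic ones, and NM_009479 is at 20.4% or more only in the tumor libraries.

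For Ppox, at chr1:171276991-171281193, the main model NM_008911 held 85.05% to 87.4% in tumor CD45+, 72.4% to 73.5% in splenic CD45+ and 74.6% to 78.1% in splenic CD45- libraries, with no overlap between groups. The Fech model NM_007998 held 90.6% to 98.5% in tumor CD45+, 88.4% to 90.3% in splenic CD45+ and 87.9% to 88.9% in splenic CD45- libraries, so the lowest tumor library lay just above the highest splenic one. The Urod model NM_009478 held 76.6% to 90.3% in tumor CD45+, 83.8% to 85.9% in splenic CD45+ and 84.5% to 86.9% in splenic CD45- libraries, and there the groups overlapped. Alas1 at chr9:106233455-106247954 had nearly all of its value in 1 model, Cpox at chr16:58670208-58680391 had 1 model, and Alad at chr4:62505984-62520063 had 1 model at 92.8% or more in each library. Urod lies at chr4:116989965-116994436, on the same chromosome as Alad. Annotated exons of 4 enzymes share bases with a gene on the opposite strand: Ppox with B4galt3 (791 of 4515 bases), Alas1 with an antisense RNA gene (465 of 6174), Alas2 with Apex2 (311 of 2403) and Cpox with Gpr15 (204 of 6661). Whether counting used strand is not stated, so reads there cannot be told apart.

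Across all 10 libraries, globin genes were among those with profiles most like that of Alas2. By Euclidean distance between centred log2(FPKM + 1) profiles among 5969 genes with a mean of 10 FPKM or more, the near ones included Hba-a1 (0.709), Hba-a2 (0.791), Hbb-b2 (0.943) and Hbb-b1 (1.31). Fech ranked 6 in nearness to Alas2, Urod 22, Ppox 39, Uros 56, Alad 66 and Cpox 146, while Alas1 ranked 4498. The genes nearest to Alas1 were Bmi1 (0.393), Atg3 (0.494), Kctd10 (0.506), Prps2 (0.545) and Znrf1 (0.550), and the other enzymes ranked between 5822 and 5903 of 5969. Alas2 was also scaled to the alpha-globin gene Hba-a1. How reads were divided between Hba-a1 and Hba-a2 was not tested. Per 1000 FPKM of Hba-a1, Alas2 had 5.52 to 6.89 FPKM in tumor CD45+ libraries. The values were 7.34 to 9.02 in splenic CD45+ and 8.33 to 9.62 in splenic CD45- libraries. Tumor replicate 1 had the lowest of these values, though its Alas2 was the highest of the tumor libraries. These distances and ratios describe the 10 libraries, which share groups and depth.

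Genes that supply and surround the pathway moved in both directions. Their counts are on the deposited scale; over the other scalings the median of all genes ran from -0.21 to 0.44 for tumor against splenic CD45+ libraries, from 0.0099 to 1.02 between the splenic groups and from 0.14 to 1.47 for tumor CD45+ against splenic CD45- libraries. Of all genes tested, 26.0% were called lower and 37.7% higher in tumor CD45+ against splenic CD45+ libraries. Between the splenic groups these shares were 5.02% and 50.5%. In tumor CD45+ against splenic CD45- libraries they were 22.5% and 67.5%. The list of precursor supply and mitochondrial transport held 16 genes. In tumor CD45+ against splenic CD45+ libraries 10 of them fell, 5 rose and 1 did not pass (median log2 change -1.22). The higher ones, named after their values were seen, were Tspo (1.21), Slc25a28 (0.95), Suclg2 (0.86), Sucla2 (0.55) and Suclg1 (0.52), and 4 of these, all but Tspo, were also the ones higher in splenic CD45+ against splenic CD45- libraries. The 3 largest changes were in Slc25a37, the mitochondrial iron importer mitoferrin-1 (-5.80 ± 0.15 SE), the erythroid protein Tspo2 (-5.55 ± 0.16 SE) and the mitochondrial transporter Abcb10 (-5.42 ± 0.20 SE). In splenic CD45+ against splenic CD45- libraries, 8 of the 16 fell, 4 rose and 4 did not pass (median -0.62), with Suclg2 (1.74 ± 0.20 SE) and Suclg1 (1.26 ± 0.20 SE), subunits of succinyl-CoA synthetase, higher and Tspo2 lower (-1.19 ± 0.18 SE). Tumor CD45+ against splenic CD45- libraries had 11 lower and 5 higher (median -1.46), led by Tspo2 (-6.74 ± 0.11 SE), Slc25a37 (-6.33 ± 0.08 SE) and Abcb10 (-6.13 ± 0.07 SE). Tspo2 was at most 0.28 FPKM in the tumor libraries and entered the tumor comparisons only through the splenic ones. Its direction there was thus fixed by the filter on low values. Slc25a37 was at 9.97 to 12.1 FPKM in tumor CD45+, 603 to 785.1 FPKM in splenic CD45+ and 917.1 to 1011 FPKM in splenic CD45- libraries, so its 3 groups did not overlap.

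Of 15 genes of iron-sulphur cluster assembly and iron sensing, 7 fell and 2 rose, Fdx1 (1.32) and Hspa9 (1.06), in tumor CD45+ against splenic CD45+ libraries (median -0.54). With both directions pooled, these 9 of 15 called stand beside 63.8% of all genes. The 14 of 15 called in tumor CD45+ against splenic CD45- libraries stand beside 90.0%, both near the background. By direction they were not: all genes called lower and higher were 26.0% and 37.7% in the first comparison and 22.5% and 67.5% in the second. Between the splenic groups these shares were 5.02% and 50.5%. The largest changes in tumor CD45+ against splenic CD45+ libraries were in Glrx5 (-3.39 ± 0.19 SE), Isca1 (-2.99 ± 0.19 SE) and Iba57 (-2.90 ± 0.20 SE). Each of these acts in mitochondrial cluster assembly. In splenic CD45+ against splenic CD45- libraries 5 fell and 4 rose (median -0.60), with the chaperone Hspa9 (1.85 ± 0.29 SE), the ferredoxin reductase Fdxr (1.24 ± 0.21 SE) and the ferredoxin Fdx1 (1.14 ± 0.21 SE) changing most. In tumor CD45+ against splenic CD45- libraries 10 fell and 4 rose (median -0.74), with Glrx5 (-4.27 ± 0.11 SE), Iba57 (-3.85 ± 0.08 SE) and Isca1 (-3.62 ± 0.18 SE) at the head.

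Of 12 genes of haem breakdown, export and sensing, 10 passed the filter on low values. Some counts were near the background: 5 of 10 rose between the splenic groups, where 50.5% of all genes were called higher. In tumor CD45+ against splenic CD45- libraries 10 of 10 were called, where 90.0% of all genes were called. Between the splenic groups 3 of 10 fell, where 5.02% of all genes were called lower. That background depended on scaling: it was 488 of 9728 genes on the deposited scale. With trimmed-mean scaling it was 1741 of 9552 and with median-ratio scaling 1568 of 9412. The list was not recounted under those scalings, and these small counts were not tested. In the tumor comparisons with splenic CD45+ and splenic CD45- libraries 4 of 10 fell in each, beside 26.0% and 22.5%. There 3 and 6 of 10 rose, beside 37.7% and 67.5%. A total of 4 fell and 3 rose in tumor CD45+ against splenic CD45+ libraries (median 0.06), with Eif2ak1, the haem-regulated kinase, at -3.25 ± 0.16 (SE), the reductase Blvrb at -2.94 ± 0.23 (SE) and the haem oxygenase Hmox2 at 1.94 ± 0.17 (SE). Blvra, the other biliverdin reductase, was called in the opposite direction to Blvrb, at 1.82. In splenic CD45+ against splenic CD45- libraries 3 fell and 5 rose (median 0.38), with the inducible haem oxygenase Hmox1 at 2.96 ± 0.94 (SE), the haemoglobin scavenger receptor Cd163 at 2.29 ± 0.79 (SE) and the haem exporter Flvcr1 at 1.83 ± 0.21 (SE). In tumor CD45+ against splenic CD45- libraries 4 fell and 6 rose (median 1.44), with Hmox1 at 5.05 ± 0.08 (SE), Blvrb at -4.06 ± 0.14 (SE) and Eif2ak1 at -3.99 ± 0.10 (SE). Cd163 and Flvcr1 were below 1 FPKM in every splenic CD45- library (at most 0.75 and 0.88 FPKM). They entered comparisons with that group only through the CD45+ libraries, which fixed their direction there. Hmox1 was at 274.1 to 300 FPKM in tumor CD45+, at 237.4, 11.8 and 103 FPKM in splenic CD45+ and at 7.24 to 8.32 FPKM in splenic CD45- libraries, and it was high where macrophage markers were high. Its dependence on those markers was not tested.

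Across all genes tested, 26.0% were called lower and 37.7% higher in tumor CD45+ against splenic CD45+ libraries. Against splenic CD45- libraries the tumor group had 22.5% lower and 67.5% higher. Among erythroid regulators of the pathway most were lower in the tumor libraries, and Nr1d1, a clock repressor that binds haem, was the exception. Of the 10 tested in tumor CD45+ against splenic CD45+ libraries, 9 fell and Nr1d1 rose (2.68, named after its value was seen; median of the 10 -5.74), with Klf1 (-8.30 ± 0.28 SE), Gata1 (-7.05 ± 0.27 SE) and Tal1 (-6.44 ± 0.28 SE), transcription factors of red cell precursors, at the head. In splenic CD45+ against splenic CD45- libraries 6 of 9 fell and 0 rose (median -0.71), where limma called 5.02% of all genes lower and 50.5% higher. The erythropoietin receptor Epor (-1.28 ± 0.23 SE), Zfpm1, the partner of Gata1 (-1.06 ± 0.26 SE), and Klf1 (-0.95 ± 0.31 SE) changed most. Tumor CD45+ against splenic CD45- libraries had 9 lower and Nr1d1 higher (3.10, median of the 10 -6.75), led by Klf1 (-9.25 ± 0.11 SE), Gata1 (-7.88 ± 0.11 SE) and Epor (-7.23 ± 0.12 SE). Klf1, Gata1 and Epor were below 1 FPKM in every tumor library (at most 0.45, 0.27 and 0.55 FPKM). They entered the tumor comparisons only through the splenic libraries, and Nr1d1 (at most 0.65 FPKM in spleen) only through the tumor libraries. The direction of these genes was thus fixed by the filter, and the counts include them.

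Klf1 was at 0.09 to 0.45 FPKM in tumor CD45+, at 271.3, 612.7 and 328.7 FPKM in splenic CD45+ and at 703.6 to 787.8 FPKM in splenic CD45- libraries. The tumor libraries thus held 39.4 FPKM or more of Alas2 and 28.9 FPKM or more of Alad beside Klf1 below 0.5 FPKM. The 17 erythroid markers that could be tested had a median log2 change of -7.17 between tumor CD45+ and splenic CD45+ libraries, and all 18 had one of -0.65 between splenic CD45+ and splenic CD45- libraries, beside -4.64 and -0.81 for the 8 enzymes. Several of these markers, such as Kel and Rhag, were below 1 FPKM in every tumor library (at most 0.37 and 0.16 FPKM). Such markers entered the tumor comparison only through the splenic libraries, which fixed their direction. The part of erythroid cell content in the enzyme differences was not tested.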

How the data were processed

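Messenger RNA was measured in 10 libraries (3 groups). The authors deposited 1 table per library with a value for each of 61685 RefSeq models. Tables carry no unit, and the values the authors deposited were read as FPKM because they have 2 decimals, sum to 801072 to 1367791 and, weighted by length in kilobases, to 953307 to 1137767. Per the submitters' processing notes the genome was GRCm38.p6. The authors' aligner, program and annotation release were not given in the sources used here. Symbols were matched for 60167 models, which were summed to 17603 genes, and the other 1518 held 0.423% to 1.06% of the summed FPKM. Whole fragments could not be restored for every gene. The depth estimate came from steps of low values with transcript length reduced by 260 bases.

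Each comparison was fitted in R 4.3.3 by limma 3.58.1, with a mean-dependent prior, to log2(FPKM + 1). Genes needed 1 FPKM in 3 of the compared libraries to enter. A gene below 1 FPKM throughout 1 group could enter only through the other, and its direction was then fixed. Fold changes on this scale understate those of low genes. A Benjamini-Hochberg adjusted p below 0.05 was required for a call, and the fit was tested on simulated data. The Alas2 to Alas1 ratio was tested by exact permutation (scipy 1.17.1). Alternatives covered scaling, pseudocount, filter, models, samples in the fit, replicate numbers and leaving libraries out. Averaging tumor replicates 2 to 4 was added after seeing the data. All 8 enzymes were named, and from each other list the 3 called genes with the largest change, plus the 5 genes nearest to Alas1 and to Alas2, of which 1 is not reported here. The enzymes and lists were chosen with earlier results of these data known. The labels do not say whether replicate numbers pair libraries. Correlations of same-numbered deviations from the group means ran from -0.184 to 0.245, which with so few libraries cannot settle it.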

Additional observations from a re-analysis of the deposited data

Results flagged for a closer look

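Among 10 values examined in the 4 tumor CD45+ libraries (8 enzymes, their sum and the log2 ratio), 4 had 1 library far from the rest, each time replicate 1. By chance about 1 in 20 such groups would be picked out if the 4 libraries were independent draws from a normal distribution. Over all genes of sufficient level, replicates 2 to 4 correlated at 0.9976 to 0.9988 with each other and at 0.9803 to 0.9824 with replicate 1. They may not be independent, so that rate cannot be applied here. The 10 values were not independent: the ratio and the sum both contain Alas2, which made up 63.4% of the sum in replicate 1. The 4 are therefore not 4 separate results. Alas2 was at 223.7 FPKM in that library, against 39.4 to 43.4 FPKM in the other 3. Fech was at 29.96 FPKM, against 16.3 to 17.7 FPKM. The log2 ratio of Alas2 to Alas1 was 3.863, against 1.24 to 1.29, and the summed FPKM of the 8 enzymes was 352.9, against 148.4 to 161 FPKM. In the same library globin genes held 10.4% of the summed FPKM and the 15 granulocyte markers summed to 1761 FPKM, against 1.8% to 1.87% and 49.5 to 57.4 FPKM in the others. Their part in the 4 values was not tested.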

How the results depend on the processing

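In tumor CD45+ against splenic CD45- libraries, the 8 single-enzyme results kept direction and call under all 144 alternative fits, and in tumor CD45+ against splenic CD45+ libraries under 141 of 144, the 3 exceptions being Alas1. There, enzymes called higher numbered 1 (Alas1) with common-sum scaling and with 1 fit over all 10 libraries (adjusted p = 0.0377), against 0, and Alas1 was -0.0062 with globin genes left out. In splenic CD45+ against CD45- libraries 108 of 128 kept both. Enzymes called lower numbered 0 with common-sum scaling, 7 with trimmed-mean and with median-ratio scaling, 6 with globin genes left out and with a pseudocount of 0.1, 4 with no filter and 3 to 7 when 1 library was left out, against 5, and Cpox was 0.10 with common-sum scaling and -0.62 to 0.0084 when 1 library was left out. Of the 20 that did not, 9 lost their call, 9 gained one (Uros or Cpox) and 2 reversed (Cpox). Alas2 there was -1.76 with trimmed-mean, -1.53 with median-ratio and -0.65 with common-sum scaling, against -1.03, and missed the threshold with common-sum scaling (adjusted p = 0.0577), with no filter (0.0539), with 1 fit over all libraries (0.136) and without splenic CD45- replicate 1 (0.0584), a setting in which Alad also missed it (0.0588). Genes called lower there numbered 488, against 1741 with trimmed-mean, 1568 with median-ratio, 121 with common-sum and 878 with globin-free scaling, and 201 to 1419 with 1 library left out. Genes called higher numbered 4912, against 2769, 3089 (trimmed-mean, median-ratio), 2683 (filter at 5 FPKM) and 2741 to 3910 (1 library left out). Higher genes were 91.0% of calls, against 61.4%, 66.3% and 81.5% (trimmed-mean, median-ratio, globin-free). In tumor CD45+ against splenic CD45- libraries that share was 75.0%, against 53.0%, 64.5% and 60.6%, with 2522 genes lower, against 4644, 3511 and 3833, and 1594 with common-sum scaling. In tumor CD45+ against splenic CD45+ libraries it was 59.2%, against 70.6% (common-sum) and 40.6% (globin-free), with 2986 genes lower, against 1963 with common-sum scaling. With tumor replicates 2 to 4 averaged, genes called there numbered 1731 lower and 1912 higher, against 2986 and 4327, and 4130 higher in tumor CD45+ against splenic CD45- libraries, against 7563, with enzyme calls as before. The cause of these shifts was not tested. The log2 ratio of Alas2 to Alas1 kept its direction under its 31 alternatives, none of which changed the scaling. With 1 library left out it lay at -5.69 to -4.81, -3.34 to -3.11 and -8.88 to -8.00 in the order of the report. The fit with the replicate number as a block, which pairs libraries by number alone, called 7, 5 and 7 enzymes lower and 0, 1 and 1 higher in the 3 comparisons, and the ratio differences with that block were -4.83, -3.19 and -8.01. Depth limits values below 1 FPKM, which applies to the minor Uros models and not to the 8 enzymes.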
